A study of Oryctolagus cuniculus with 16 samples.

Results

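The subunits of oxidative phosphorylation were followed in the wall of the rabbit basilar artery (BA) and basilar terminus (BT) 24 h after carotid ligation or sham surgery. They were chosen by gene symbol alone: names of complex I subunits (NDUF followed by A, B, C, S or V), SDHA to SDHD, UQCR genes, COX4 to COX8 genes and ATP5 genes with a count in at least 1 library. The rule found 41 genes among 11925 with a count. By symbol, 21 were counted under complex I, 1 under complex II, 3 under complex III, 7 under complex IV and 9 under complex V. Female New Zealand white rabbits 5 and 6 had both common carotid arteries ligated, which raises flow through the BA, and rabbits 3 and 4 had sham surgery. Intima and media were cut from frozen sections by laser microdissection and sequenced separately, which gave 16 libraries in 8 groups of flow, location and layer, with 2 rabbits in each group. Every library pooled several sections of 1 rabbit, the intimal strips carried some smooth muscle with the endothelium, and the same 4 rabbits supplied all 4 tissues.

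Oxidative phosphorylation makes ATP in the inner mitochondrial membrane. Complexes I and II take electrons from NADH and succinate, complex III passes them to cytochrome c, complex IV hands them to oxygen, and ATP synthase, or complex V, uses the proton gradient built on the way. Most subunits are encoded in the nucleus and imported, while a core set is encoded by mitochondrial DNA. Resting endothelium draws much of its ATP from glycolysis, and vascular smooth muscle uses both routes. Some complex IV subunits exist as tissue isoforms, such as COX7A1, the form of heart and skeletal muscle, and COX4I2, a form known from lung and from hypoxic cells.

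Counts on named genes ranged from 2154863 to 17686105 per library. Layer labels matched their markers, since 11 of 11 endothelial markers with a count had a positive log2 ratio of intima to media and 7 passed the test, while 10 of 10 smooth muscle markers had a negative one and 8 passed. Their summed level still reached 14946 to 92985 CPM in the intima, against 93960 to 151858 CPM in the media. Erythrocyte genes, 3 with a count, were highest in the intima of sham rabbit 4, with 91924 CPM at the BA and 129802 CPM at the BT. They held 3302 to 57569 CPM in the ligated intima and down to 4.68 CPM in the sham intima. The library with the least, of the sham media, held 1.74 CPM. Leptomeningeal fibroblast markers, 9 with a count, summed to 3880 to 22071 CPM in sham libraries and to 646 to 6459 CPM in ligated libraries. What part such shifts had in the results below was not tested, and fewer cells of a type cannot be told apart from less RNA per cell in this tissue.

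All levels are counts scaled to library size with TMM factors, in CPM. Gene lengths were not used, so a level in CPM is read for 1 gene across libraries. In every library, 40 of the 41 genes had a count and 37 had at least 100 counts. The exception was NDUFA4L2, a relative of a cytochrome oxidase subunit that marks hypoxic cells and pericytes. NDUFA4L2 was counted under complex I by its symbol alone. It ranged from 0 to 24 counts per library and did not pass the filter of 1 CPM. All 41 genes together made up 1.94% to 2.74% of a library's counts, which is 18821 to 27116 CPM. The reads of each complex fell most often on NDUFA2 (mean 1034 CPM), SDHA (49.0 CPM), UQCRB (709.9 CPM), COX5B (1724 CPM) and ATP5PD (1376 CPM), a share of reads that also grows with gene length and is no comparison of levels between genes. From library to library, most of these genes varied little. The SD of log2 CPM over the 16 libraries had a median of 0.36 for the 40 genes above a mean of 1 CPM, against 0.94 over all 8702 such genes and 0.53 over the 1558 genes above 100 CPM.

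**Figure D1:**
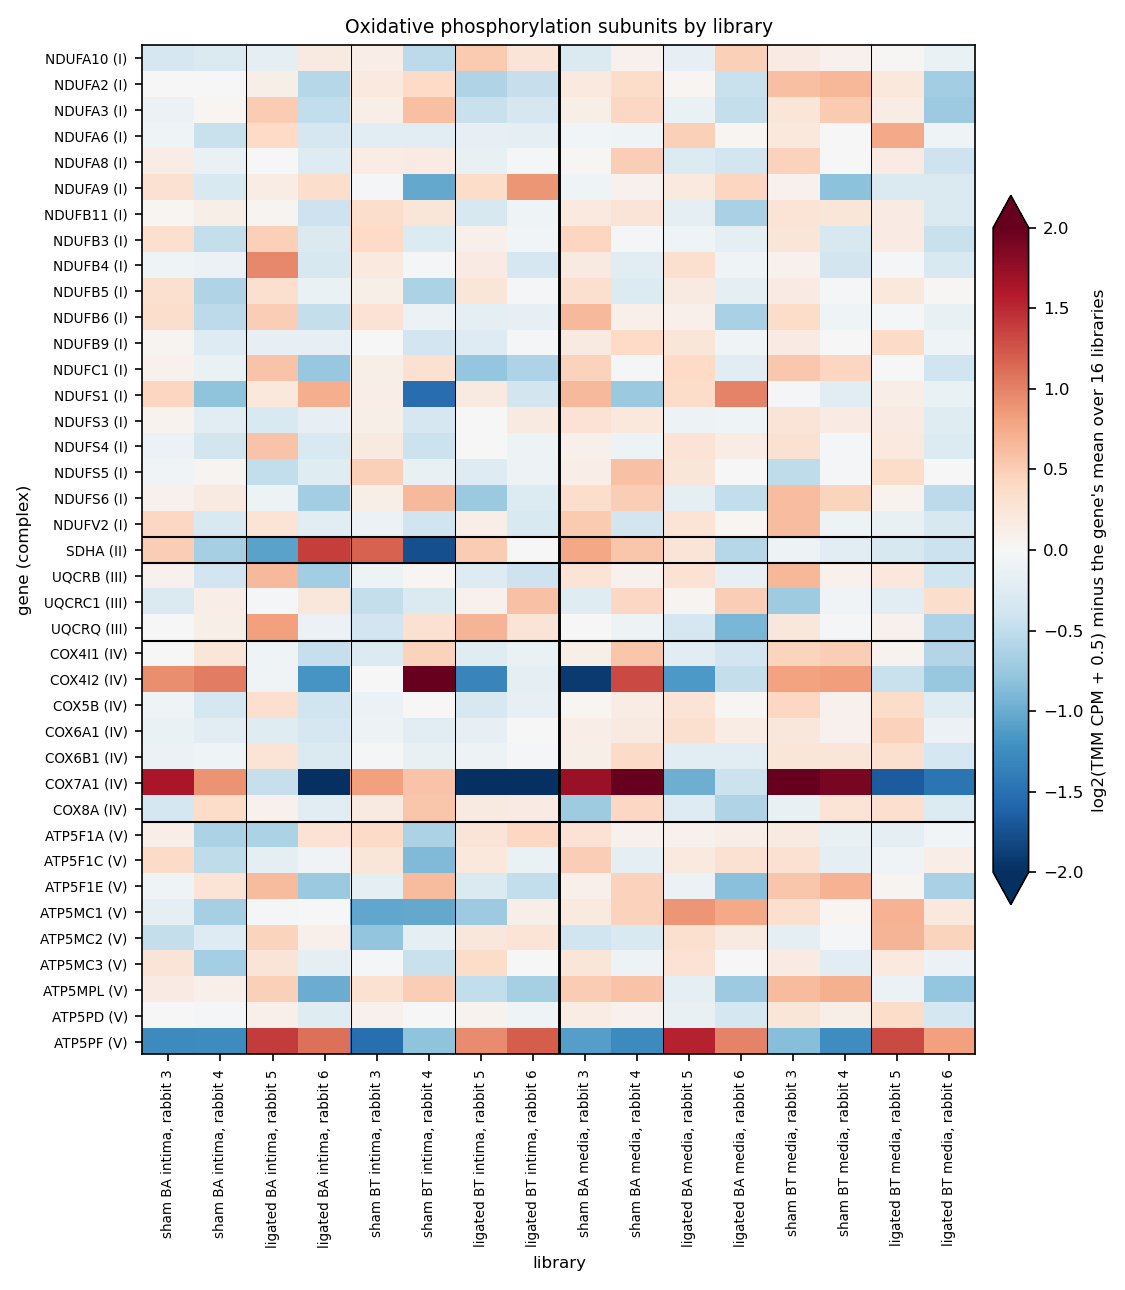
Each row is 1 of 39 subunit genes, with its complex in brackets, and each column 1 library. Colour is log2(CPM + 0.5) minus the mean of the gene over 16 libraries, cut at 2 in either direction. ATP5PF and COX7A1 turn colour most strongly between sham and ligated libraries in all 4 tissues, and ATP5MC2 does so more faintly. COX4I2 and SDHA differ most between rabbits of a group.

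The subunits were also summed by complex. For complex I, the sum was 9295 and 7444 CPM in the sham BA intima (rabbits 3 and 4) and 10162 and 7010 CPM in the ligated BA intima (rabbits 5 and 6). In the BA media it was 10199 and 9473 CPM in sham and 9545 and 7915 CPM in ligated rabbits, and in the BT media 10762 and 9318 CPM against 9972 and 7063 CPM. The flow groups overlapped in these 3 tissues but not in the BT intima, where both ligated rabbits (7695 and 7760 CPM) lay below both sham rabbits (9398 and 8165 CPM). For complex V the BT intima again did not overlap, here with ligated rabbits higher, at 7222 and 7313 CPM against 6160 and 5773 CPM in sham. Without ATP5PF the values there were 6645 and 6619 CPM against 6055 and 5602 CPM. In the other 3 tissues the flow groups of complex V overlapped. For complex III the groups did not overlap in the BA media, with 1548 and 1532 CPM in sham against 1504 and 1230 CPM in ligated rabbits, and for complex IV they overlapped in all 4 tissues. These sums were not tested, and groups of 2 rabbits often do not overlap. Of all genes, 20.4% lay above and 25.5% below sham without overlap in the BT intima, and 21% and 26% in the BA media. For complex IV, sums ran from 3885 to 5368 CPM over the 8 intimal libraries and from 4159 to 6340 CPM over the 8 medial ones. Those of complex V ran from 5495 to 8186 CPM in the intima and from 6935 to 9050 CPM in the media. Of the 2 ligated rabbits in the BA intima, rabbit 6 had the lowest complex I sum of all 16 libraries and rabbit 5 the highest of the 8 intimal ones.

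**Figure D2:**
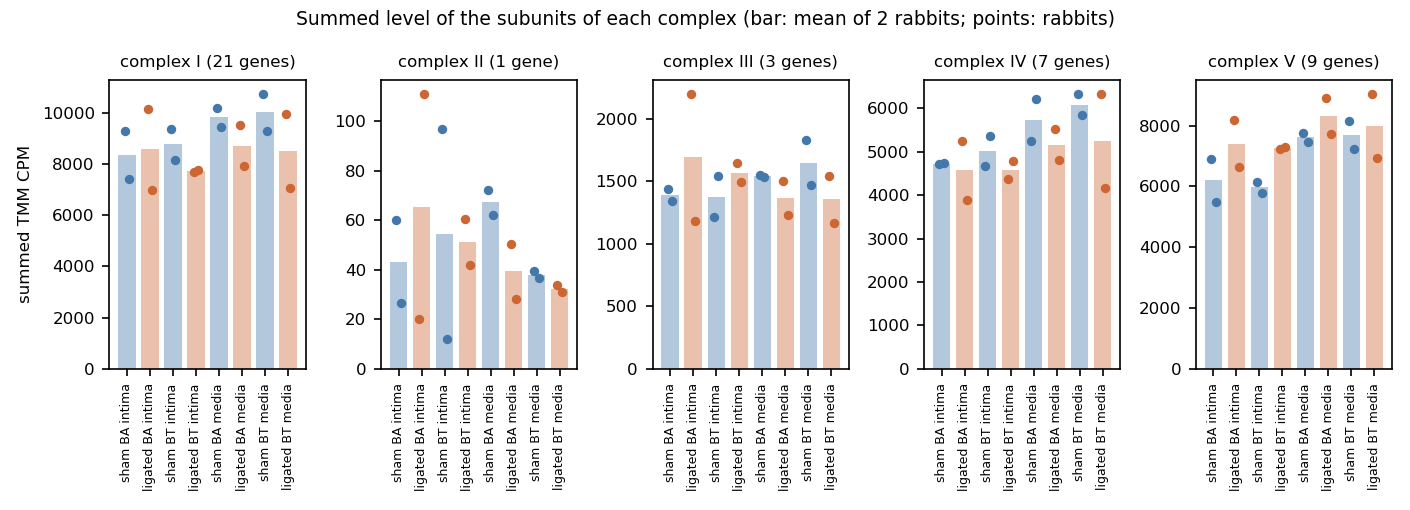
Summed CPM of the subunits of each complex, with bars for the mean of 2 rabbits and points for the rabbits (blue sham, orange ligated). All axes start at 0 and differ in scale. In the BT intima the ligated points lie below the sham points for complex I and above them for complex V, and complex II, which is SDHA alone, runs from 12.2 to 111 CPM.

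The first comparison asked which subunits differed between ligated and sham rabbits in each tissue, with edgeR's quasi-likelihood F test on 2 against 2 rabbits and q below 0.05 over all genes tested. Of the 40 subunits tested in each tissue, ATP5PF rose with ligation in the media of both locations, and COX7A1 fell in the BT media. No other subunit passed. In the BA media this was 1 higher and 0 lower, where 0.431% of 8817 genes were higher and 0.386% lower. In the BT media it was 1 higher and 1 lower, where 1.16% of 8803 genes were higher and 1.18% lower. In the intima no subunit passed at either location, and neither did any other gene (0% higher and 0% lower at the BA and at the BT). The study, with its own edgeR fit, reported intimal genes past q below 0.05 at both locations and listed ATP5PF among them. Why the fits differ was not tested. At an unadjusted p below 0.05 and with DESeq2 the intima did give subunits, as counted next. The p-values measure the spread between 2 rabbits of a group, and a difference between these particular animals cannot be told apart from the effect of ligation.

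Without adjustment, p was below 0.05 for 7 subunits at the BT and 4 at the BA in the media (16% and 13.6% of all genes), and for 4 at the BT and 2 at the BA in the intima (11.6% and 5.94%). With DESeq2, q was below 0.05 for ATP5PF at the BA and for ATP5PF and COX7A1 at the BT in the intima. Most subunits differed little. In the intima their log2 fold change lay within 0.5 of 0 for 80% at the BA and 65% at the BT, against 40.7% and 33.3% of all genes tested. In the media the shares were 60% and 70%, against 32.9% and 33.8%. Of the genes above 100 CPM, as 37 of the 41 subunits were, 56.7% and 46.7% lay in that range in the intima and 46.3% and 50.2% in the media. The median log2 fold change of the subunits was 0.10 at the BA and -0.06 at the BT in the intima, beside -0.09 and -0.13 over all genes and 0.10 and 0.06 over the genes above 100 CPM. In the media it was -0.21 at the BA and -0.16 at the BT, beside -0.15 and 0.03 over all genes and 0.18 and -0.06 over the genes above 100 CPM. Negative were 25 of 40 in the BA media and 28 of 40 in the BT media, and with library size alone 30 and 22.

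**Figure D3:**
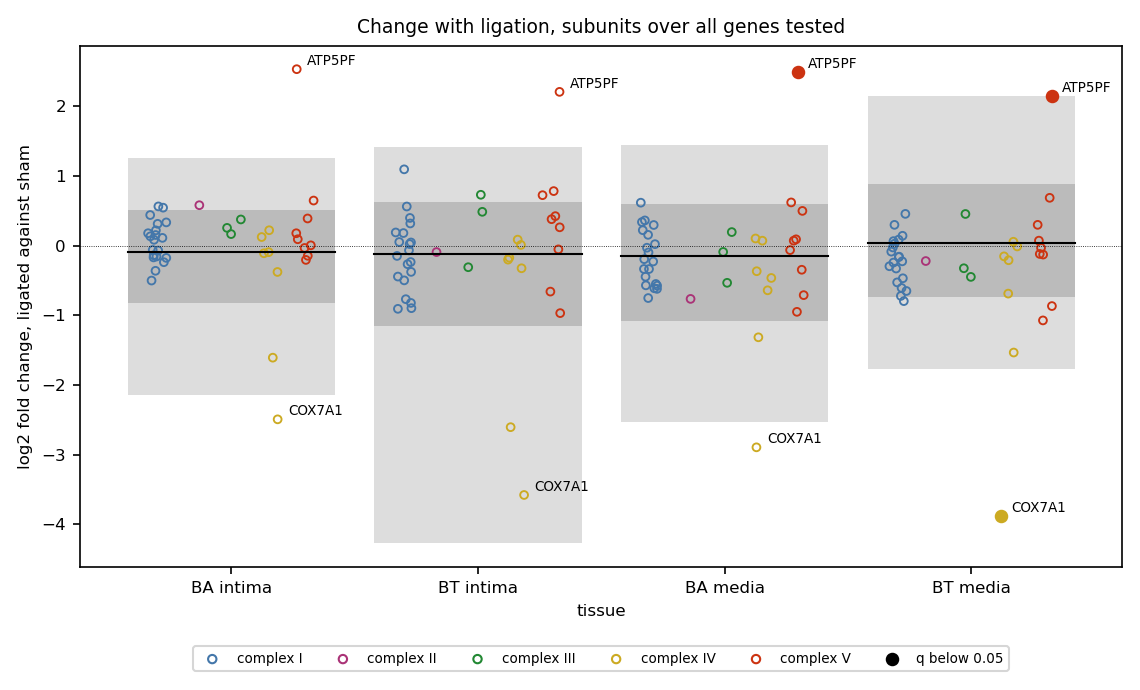
Log2 fold change of ligated against sham rabbits for 40 subunits in 4 tissues, coloured by complex, with filled points for q below 0.05. Grey bands hold the middle 80% and the middle 50% of all genes tested and the black line their median. ATP5PF lies at or above the upper edge of the wide band in each tissue, and COX7A1 below its lower edge except in the BT intima.

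In complex V, ATP5PF was the gene that differed most with ligation. It encodes coupling factor 6, a subunit of the peripheral stalk that holds the head of ATP synthase in place. In the BA intima it stood at 123 and 125 CPM in sham rabbits 3 and 4, and at 788 and 645 CPM in ligated rabbits 5 and 6. In the BT intima the values were 105 and 171 CPM against 577 and 695 CPM. All ligated values were above all sham values in both intimal tissues. The media showed nearly the same levels, with 139 and 123 CPM against 869 and 595 CPM at the BA, and 165 and 127 CPM against 749.5 and 532 CPM at the BT. In the intima, group means with ligation were 5.78-fold (BA) and 4.61-fold (BT) those of sham, with log2 fold changes of 2.53 (SE 0.45, q = 0.234) and 2.21 (SE 0.44, q = 0.253) that did not pass. In the media they were 5.58-fold (BA) and 4.39-fold (BT) higher, with log2 fold changes of 2.49 (SE 0.34, q = 0.0211) and 2.15 (SE 0.33, q = 0.00655) that did.

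ATP5PF took 1.65% to 2.96% of the complex V counts in the 8 sham libraries and 7.67% to 9.73% in the 8 ligated libraries, a share that does not depend on how libraries are scaled. The change with ligation differed between BT and BA by -0.35 on the log2 scale in the intima (SE 0.54, q = 1) and by -0.35 in the media (SE 0.45, q = 0.947), and between layers by 0.06 (SE 0.34, q = 1). ATP5PF has 2 neighbours in the RefSeq table. GABPA, a transcription factor of mitochondrial genes, held 1.46 to 22.8 CPM and its q was above 0.05 in all 4 tissues. JAM2, a junction protein of endothelium, was above sham without overlap in the intima, at 35.9 and 17.3 CPM against 81.7 and 88.5 CPM at the BA and 57.5 and 44.1 CPM against 125 and 144 CPM at the BT. Its log2 fold changes of 1.67 (SE 0.59, q = 0.757) and 1.41 (SE 0.43, q = 0.321) did not pass, and in the media they were -0.38 and 0.09. The counts cannot separate a gene from an antisense partner, because the kit did not mark strand. The call in the BA media was lost without any 1 of the rabbits (q = 0.144 without rabbit 3, 0.189 without 4, 0.407 without 5 and 0.332 without 6). In the BA intima q fell below 0.05 without rabbit 3 (0.0363) or rabbit 4 (0.0279).

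The c subunit, which forms the proton-driven ring of ATP synthase, is made from 3 genes whose mature proteins are the same. ATP5MC2 stood at 505 and 590.4 CPM in sham and 959 and 752 CPM in ligated rabbits in the BA intima, and at 405 and 612 CPM against 824 and 852 CPM in the BT intima. Medial values at the BA were 533 and 571 CPM against 884 and 796 CPM, and those at the BT 612 and 691 CPM against 1125 and 958 CPM. The 2 flow groups did not overlap in any of the 4 tissues, and group means were 1.52-fold to 1.65-fold higher with ligation. Its log2 fold changes of 0.62 to 0.72 had q-values from 0.272 to 0.861 and did not pass. ATP5MC1 was also above sham without overlap everywhere but in the BT media, by 0.39 to 0.78 on the log2 scale, and ATP5MC3 only in the BT intima. None of these passed the test. Summed over the 3 genes, the level was 2022 to 2914 CPM in the sham intima and 2947 to 3501 CPM in the ligated intima.

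Other complex V subunits gave lower values in ligated rabbits. ATP5MPL, a small proteolipid of the membrane part, was 449 and 514 CPM in sham against 260.1 and 230.0 CPM in ligated rabbits in the BT intima. It was 518 and 542 CPM against 323 and 220.4 CPM in the BA media, and 564 and 598 CPM against 335 and 214 CPM in the BT media. These groups did not overlap, but in the BA intima they did, at 407 and 393 CPM against 508 and 183 CPM. The q-values were 0.404, 0.252, 0.117 and 0.994 for log2 fold changes of -0.97, -0.95, -1.07 and -0.20. ATP5F1E, the epsilon subunit of the central stalk, was likewise below sham without overlap in 3 tissues, by -0.66 to -0.87, and at 0.00 in the BA intima. The alpha subunit ATP5F1A had changes from -0.13 to 0.38 and the stalk subunit ATP5PD from -0.35 to -0.03, and neither passed the test. ATP5F1A was 602 and 352 CPM in sham and 353 and 669 CPM in ligated rabbits in the BA intima, so that its groups overlapped there. The beta subunit was not analysed here.

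**Figure D4:**
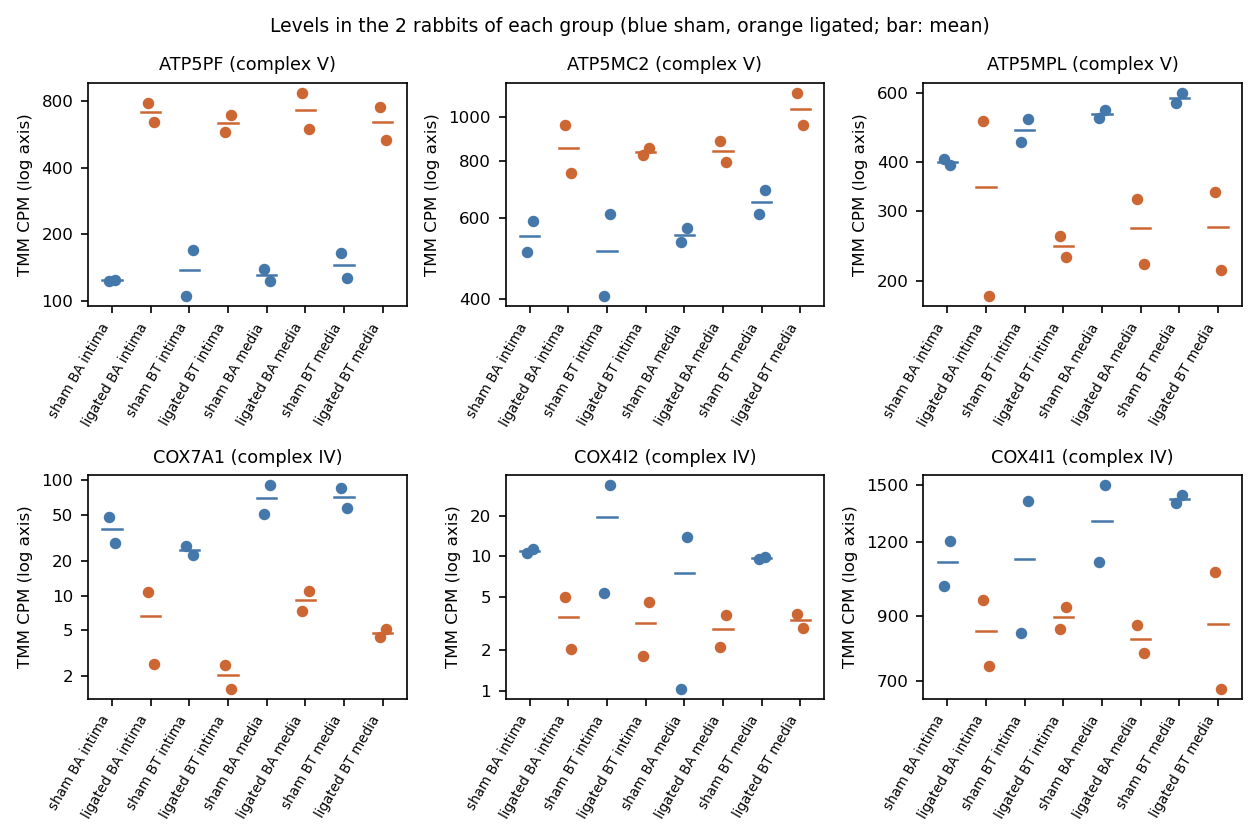
CPM of 6 subunits in the 2 rabbits of each group, on log axes that differ in range (blue sham, orange ligated; bar, mean). ATP5PF and ATP5MC2 are higher and COX7A1 is lower in all ligated rabbits of each tissue, with q below 0.05 for ATP5PF in both media and COX7A1 in the BT media. ATP5MPL overlaps in the BA intima, COX4I2 in the BA media and COX4I1 in the BT intima.

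In complex IV, COX7A1 was the gene that differed most. Its product is the muscle form of subunit 7a. COX7A1 was at 85.7 and 56.9 CPM in the BT media of sham rabbits 3 and 4 and at 4.36 and 5.14 CPM in ligated rabbits 5 and 6. In the BA media it was 50.7 and 89.97 CPM against 7.38 and 11.0 CPM. The sham groups lay above the ligated ones also in the intima, with 47.5 and 28.3 CPM against 10.8 and 2.57 CPM at the BA, and 26.7 and 22.4 CPM against 2.51 and 1.56 CPM at the BT. The sham group mean was 15.01 times the ligated one in the BT media, where the log2 fold change was -3.88 (SE 0.60, q = 0.00655). It was 7.65 times in the BA media (-2.90, SE 0.60, q = 0.0731), 5.69 times in the BA intima (-2.49, SE 0.89, q = 0.757) and 12.1 times in the BT intima (-3.58, SE 0.90, q = 0.278), and none of these passed. These values rest on 14 to 842 counts per library. Without rabbit 6 the call in the BT media was lost (q = 0.0652) at a log2 fold change of -4.01.

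Because COX7A1 is a muscle isoform, muscle and wall cell markers are given beside it. Of 10 smooth muscle markers with a count, 2 fell in the BT media (MYH11 and LMOD1) and none passed in the other tissues. Their summed level was 97350 to 132705 CPM in the sham media and 93960 to 151858 CPM in the ligated media. Of 9 skeletal and cardiac muscle markers in the counts, MYH7 and TNNT3 were at 0 in every library. The 7 with a count summed to 0 to 63.8 CPM over all libraries. Only 2 to 5 of them were tested with ligation in a tissue, and none was called. Of 5 pericyte markers with a count, ABCC9 rose in both media and RGS5 fell in the BT media, and their sum was 395 to 656 CPM in the sham media and 596 to 812 CPM in the ligated media. Among the 9 leptomeningeal fibroblast markers, OGN, DCN and COL1A2 fell in the BA media and OGN in the BT media. The part of these cells in the level of COX7A1 was not tested.

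The other isoform of complex IV, COX4I2, was detected at 1.04 to 33.5 CPM. In the intima it was 10.5 and 11.2 CPM in sham against 5.01 and 2.05 CPM in ligated rabbits at the BA, and 5.28 and 33.5 CPM against 1.81 and 4.53 CPM at the BT. It was 9.59 and 9.84 CPM against 3.74 and 2.92 CPM in the BT media. These groups did not overlap, while in the BA media 1.04 and 13.9 CPM in sham enclosed 2.11 and 3.67 CPM in ligated rabbits. With standard errors of 1.16 to 1.54 on the log2 scale, changes of -1.32 to -2.61 did not pass (q from 0.471 to 0.874). Its general partner COX4I1, found in all tissues, had sham levels of 1397 and 1441 CPM and ligated levels of 1068 and 681 CPM in the BT media. Its log2 fold change was -0.69 there (SE 0.31, q = 0.308) and from -0.64 to -0.32 in the other tissues, and none passed. COX6A1, COX6B1, COX5B and COX8A had log2 fold changes of at most 0.46 in size in any tissue and q-values of 0.542 and above. COX6A1, the general form of subunit 6a, was 1730 and 1795 CPM in sham and 1985 and 1762 CPM in ligated rabbits in the BA media, where the groups overlapped.

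Complex I was the largest group, with 20 subunits tested, and none passed in any tissue. Its median log2 fold change was 0.10 at the BA and -0.11 at the BT in the intima, and -0.21 and -0.19 in the media. NDUFA2, an accessory subunit of the matrix arm, was 1500 and 1573 CPM in sham against 1148 and 610 CPM in ligated rabbits in the BT media (log2 fold change -0.80, SE 0.34, q = 0.270). NDUFS6, an accessory subunit that binds zinc, was lower in ligated than in sham rabbits in all 4 tissues without overlap. It was 227 and 242 CPM in sham against 199 and 131 CPM in ligated rabbits in the BA intima, and 273 and 302 CPM against 187 and 151 CPM in the BA media. At the BT it was 231 and 336 CPM against 128 and 176 CPM in the intima, and 327 and 292 CPM against 225 and 148 CPM in the media. Its log2 fold changes lay between -0.90 and -0.50, with q-values from 0.316 to 0.915. The iron-sulphur subunit NDUFS1, which carries electrons from NADH, was 158 and 59.7 CPM in the sham BA media and 130.3 and 201 CPM in the ligated BA media. In the BT intima it was 111 and 34.8 CPM against 114 and 77.8 CPM, and the flow groups overlapped in both tissues.

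NDUFA9, an accessory subunit, had the largest positive change of complex I. It was 217 and 109 CPM in the sham BT intima and 288 and 410.3 CPM in the ligated BT intima, a log2 fold change of 1.10 (SE 0.48, q = 0.446). In the BT media its log2 fold change was 0.03 (SE 0.37). NDUFC1, a small membrane subunit, was 600.1 and 688 CPM in sham against 325 and 361 CPM in ligated rabbits in the BT intima (log2 fold change -0.91, SE 0.37, q = 0.426), and its groups overlapped at the BA.

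Complexes II and III gave no call either. SDHA, the flavoprotein that oxidises succinate, was 60.1 and 26.6 CPM in the sham BA intima and 19.9 and 111 CPM in the ligated BA intima. In the BT intima it was 97.0 and 12.2 CPM in sham and 60.5 and 41.9 CPM in ligated rabbits. The rabbits of a group differed more than 2-fold in each of these cases but the last, and the SD of SDHA within groups was 1.03 on the log2 scale against a median of 0.36 for the subunits. The media values lay closer together, from 28.3 to 72.4 CPM, with sham above ligated in both tissues (q = 0.540 at the BA and 0.879 at the BT). In complex III, the core subunit UQCRC1 was 178 and 202 CPM in sham and 261 and 370 CPM in ligated rabbits in the BT intima (log2 fold change 0.73, SE 0.39, q = 0.501), and UQCRB and UQCRQ, which are small accessory subunits, had log2 fold changes from -0.53 to 0.49 over the 4 tissues. UQCRB was 733 and 525 CPM in sham against 1073 and 426 CPM in ligated rabbits in the BA intima, where the ligated pair enclosed the sham pair.

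Groups that did not overlap were set against the same count over all genes. In the BA intima, both ligated rabbits lay above both sham rabbits for 4 subunits and below for 6 of 40, where 15.4% of all genes lay above and 20.1% below. At the BT the intima gave 8 above and 13 below, where 20.4% and 25.5% of all genes were. The media gave 6 above and 15 below at the BA, beside 21% and 26%, and 3 above and 15 below at the BT, beside 25.5% and 23%. In percent, the subunits above were 10, 20, 15 and 7.5 and those below 15, 32.5, 37.5 and 37.5 in the order just given. ATP5PF and ATP5MC2 were above in all 4 tissues, as 3.68% of 7938 genes were, and COX7A1 and NDUFS6 below in all 4, as 3.11% were, so that 5% of the 40 subunits fell in each class.

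Related genes of the pathway were taken from lists. Of the 13 subunits encoded by mitochondrial DNA, none passed with ligation in any tissue, and negative log2 fold changes were found for 13 at each location in the intima, and for 7 at the BA and 12 at the BT in the media. Of all genes, 4851 of 8968 (BA) and 5093 of 9276 (BT) were negative in the intima. In the media 4882 of 8817 (BA) and 4310 of 8803 (BT) were. The summed level of the 13 subunits in the BA intima was 58021 and 34223 CPM in sham and 14707 and 29877 CPM in ligated rabbits, and in the BT media 52462 and 67539 CPM against 45982 and 39509 CPM. Ligated rabbits lay below sham rabbits without overlap in both. The groups overlapped in the BT intima (75009 and 36495 CPM against 38001 and 34766 CPM) and in the BA media (38608 and 52155 CPM against 38755 and 43467 CPM). Of 39 assembly factors with a count, which build the complexes, none passed in any tissue, and their medians lay between -0.0026 and 0.34 on the log2 scale. Of 20 regulators of mitochondrial biogenesis, EPAS1, a hypoxia-inducible factor, rose in the BA media (log2 fold change 2.14, SE 0.26, q = 0.0170) and the BT media (1.54, SE 0.33, q = 0.0328), and the other 19 did not pass. Among 17 translocases of the mitochondrial membranes, TIMM50, which receives imported proteins at the inner membrane, rose in the BT media (2.11, SE 0.41, q = 0.0202). Carriers and porins, 9 with a count, and the 2 other subunits and electron carriers gave no call with ligation.

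The comparison of layers asked which subunits differ between intima and media, over all 16 libraries. ATP5MC1 was lower in the intima, and no subunit was higher, where 3.18% of 10091 genes were lower and 4% higher. The ring subunit gene ATP5MC1 was 614 to 1366 CPM in the 8 intimal libraries and 1294 to 2325 CPM in the 8 medial ones. In each of the 8 pairs of intima and media from the same rabbit and location, it was lower in the intima, by -0.10 (ligated BT, rabbit 6) to -1.42 (ligated BT, rabbit 5) on the log2 scale. The fitted log2 ratio of intima to media was -0.88 (SE 0.17, q = 0.00652). Its sister genes gave -0.16 (ATP5MC2, SE 0.15, q = 0.643) and -0.10 (ATP5MC3, SE 0.18, q = 0.895). Without rabbit 4 the call was lost (-0.82, q = 0.0586), and also without rabbit 5 (-0.70, q = 0.115).

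The other subunits differed by less between layers. With a p below 0.05 before adjustment were 4 of the 40, where 20.8% of all genes were. Besides ATP5MC1 they were COX7A1 at -1.03 (SE 0.33, q = 0.0784), the widely expressed COX6A1 at -0.36 (SE 0.14, q = 0.154) and UQCRQ at 0.43 (SE 0.19, q = 0.216). COX7A1 was lower in the intima in 7 of 8 pairs and COX6A1 in 7 of 8. Only ATP5MC1 and NDUFA6, an accessory subunit of complex I, were lower in all 8 pairs, where 3.56% of all genes were, and no subunit was higher in all 8, where 4.89% were. NDUFA6 had a log2 ratio of -0.32 (SE 0.17, q = 0.328). For COX8A, the general form of subunit 8, 6 of 8 pairs had more in the intima, at 0.22 (SE 0.20, q = 0.641).

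Of the whole group, 33 of 40 subunits had a negative log2 ratio, with a median of -0.11 beside 0.09 over all genes. All 9 of complex V and 17 of 20 of complex I were negative. This direction depends on the scaling, because with library size alone 31 of 40 were positive, with a median of 0.11 beside 0.31 over all genes. Relative to the median of all genes, the subunits lay at -0.20 under either scaling. The genes above 100 CPM, to which most subunits belong, had a median of -0.09 with TMM, close to that of the subunits. Of the mitochondrially encoded subunits, ND3 was lower in the intima (-0.70, SE 0.17, q = 0.0201). CKB, a creatine kinase listed with the carriers, was lower too (-0.96, SE 0.22, q = 0.0147). The summed level of the 41 subunits was 21364 ± 2181 CPM in the intima and 24264 ± 2627 CPM in the media (SD, n = 8 libraries from 4 rabbits each).

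**Figure D5:**
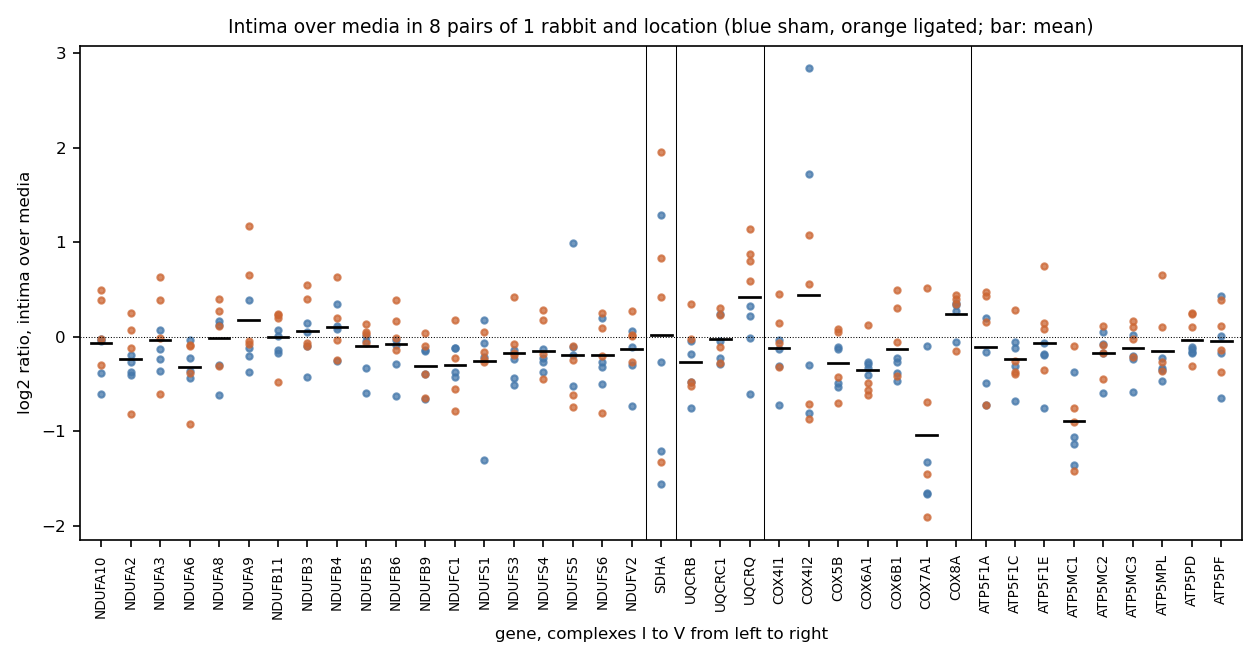
Log2 ratio of intima over media for 39 subunits in 8 pairs of the same rabbit and location (blue sham, orange ligated; bar, mean of 8). ATP5MC1 and NDUFA6 are below 0 in all 8 pairs. For UQCRQ, the 4 ligated pairs lie above 0, from 0.59 to 1.14, and the 4 sham pairs between -0.61 and 0.33.

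Location made no difference that the test could find for any subunit. Between BT and BA, none of 40 passed in the intima, where 0% of 9645 genes did, or in the media, where 0.032% of 9383 did, and none had an unadjusted p below 0.05, where 3.09% and 5.02% of all genes had. DESeq2 called none in either layer. The median log2 ratio of BT to BA was -0.03 in the intima and -0.01 in the media. In the intima it was 0.15 without rabbit 5 and -0.15 without rabbit 6, and the 26 of 40 negative ratios became 12 with library size alone. With all rabbits, 39 of 40 subunits lay within 0.5 of 0 in each layer. Named for the 2 smallest p-values in each direction, ATP5MC1 was at -0.43 (SE 0.29) and COX8A and NDUFA10 both at 0.28 in the intima, and NDUFA9 at -0.46 (SE 0.25), ATP5MC2 at 0.27 and UQCRQ at 0.26 in the media. The gene beyond 0.5 in the intima was COX7A1, at -1.17 (SE 0.60, q = 1), and in the media SDHA, at -0.56 (SE 0.35, q = 0.983). Neither passed the test.

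The change with ligation was then compared between locations and between layers by interaction tests. No subunit passed for location in the intima (0% of all genes) or the media (0.0213%), or for layer (0%). At an unadjusted p below 0.05 the counts were 0, 0 and 1 of 40, beside 3.12%, 6.43% and 4.89% of all genes, and DESeq2 called none. The single gene was UQCRQ, whose change with ligation was higher by 0.86 in the intima than in the media (SE 0.39, q = 0.995). For location in the intima, the 2 smallest p-values among positive differences belonged to NDUFA9 and UQCRC1 (0.85 and 0.54 higher at the BT) and among negative ones to NDUFC1 and NDUFA3 (-1.01 and -0.92). In the media they belonged to NDUFS5 and NDUFB6 (0.68 and 0.36) and to NDUFC1 and COX7A1 (-0.56 and -0.99). UQCRQ was 504 and 546 CPM in sham against 889.7 and 468 CPM in ligated rabbits in the BA intima, and 389 and 627 CPM against 808 and 608 CPM in the BT intima, and the groups overlapped in both. In the media it was 509 and 469.8 CPM against 403 and 267 CPM at the BA, with ligated rabbits below without overlap, and 593 and 499.7 CPM against 537 and 329.9 CPM at the BT, with overlap. Over the list, the change with ligation was higher in the intima than in the media for 35 of 40 subunits, with a median difference of 0.22, where 43.6% of all genes were positive and their median was -0.13. Of the genes above 100 CPM, 51.5% were positive, with a median of 0.02, and of the 13 subunits encoded by mitochondrial DNA none was, with a median of -0.55. Without rabbit 6 the count was 26 of 40. The count was 35 also with library size alone and with RLE scaling.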

How the data were processed

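Female rabbit basilar tissue was taken 24 h after surgery, and libraries were made by SMART-Seq v4 amplification. Per the submitters' processing notes and the study's methods, single reads were demultiplexed with bcl2fastq 2.20.0.422, checked with FastQC 0.11.5 and MultiQC 1.5, aligned with STAR to OryCun2.0 and counted with Subread featureCounts 1.6.2. The authors deposited raw counts per gene from uniquely mapped reads, so a member with a near-identical copy elsewhere may be undercounted. Rows without a symbol (13.8% to 18.69% of counts) were left out.

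From these counts, edgeR 4.0.16 in R 4.3.3 gave TMM CPM and quasi-likelihood F tests (legacy form). Genes with a mean above 1 CPM in at least 1 group were tested, with Benjamini-Hochberg q over all of them. Ligation was fitted in each tissue on 4 libraries, and layer and location over the libraries of both flow groups. Log2 levels and ratios per library used a pseudocount of 0.5. DESeq2 1.42.0, other scalings, filters and fits, a block for the rabbit, and leaving out each rabbit were alternatives. The scripts were tested on simulated counts. Python 3.11.15 drew the figures.

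Members, gene lists and tests were chosen with earlier results of these data known. Named were members past q below 0.05, the 2 members of smallest p in each direction of a comparison, and the member with most reads in each complex. Tissue isoforms with their partners and catalytic or other core subunits were named too. For 1 of the members no values are reported here. The text also names NDUFA6, NDUFS6, ATP5F1E and ATP5MC3, chosen after their values were seen. Sham and ligated rabbits are different animals and cannot be paired. Layers and locations of the same rabbit are paired by animal, and their deviations from group means had correlations across genes from -0.03 to 0.39. Of the 41 symbols, 40 matched the RefSeq table of mOryCun1.1, which was used for names and neighbours alone. Gene lengths and sequences were not used here.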

Additional observations from a re-analysis of the deposited data

How the results depend on the processing

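Of 180 counts and medians under alternatives, 154 stayed within 1.5 times the reported count or within the spread of the reported median, and 26 moved further. Some medians changed sign. Between layers the median went from -0.11 to 0.11 with library size alone, and in the BA intima from 0.10 to -0.22 without rabbit 5. Of 464 values of named members, 439 kept their direction and side of the threshold, 8 lost and 17 gained significance, and none reversed. Most of these values had not passed to begin with. A loss was possible only for ATP5PF in both media, COX7A1 in the BT media and ATP5MC1 between layers. The subunits called with ligation in the BA intima were 1 (against 0) with all genes with a count, with DESeq2 and with 1 fit over 16 libraries, and 0 to 1 without 1 rabbit. In the BT intima they were 1 with all genes, 2 with DESeq2 and 2 with the 16-library fit. In the BA media they were 2 with all genes, 2 with DESeq2, 0 with the version 4 form of edgeR, and 0 without any 1 of the rabbits. In the BT media they were 1 to 3 without 1 rabbit. Between layers they were 2 with library size alone, 3 with DESeq2 and 0 to 1 without 1 rabbit. The median log2 fold change without 1 rabbit in the intima ran from -0.22 to 0.27 at the BA and from -0.22 to 0.065 at the BT. In the media it ran from -0.34 to -0.12 at the BA and from -0.43 to -0.029 at the BT, and with library size alone it was -0.35 in the BA media, -0.02 in the BT media, 0.20 in the BA intima and 0.11 between layers. For BT against BA it ran without 1 rabbit from -0.15 to 0.15 in the intima and from -0.07 to 0.06 in the media. The cause of these shifts was not tested.

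With the replicate block for rabbit and location, 1 subunit was called between layers at a median of -0.12, and with the rabbit as block the medians of BT against BA were -0.03 in the intima and 0.00 in the media. The block changed no call of a subunit. With 2 rabbits per group, median standard errors of 0.32 to 0.48 limit what a single subunit can show in 1 tissue, and leaving out 1 rabbit leaves a lone sample that is assumed to vary like the others.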

Other observations

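EPAS1 aside, the regulators of mitochondrial biogenesis gave no call. Of the 20, log2 fold changes with ligation were positive for 9 and 10 in the intima (BA and BT, medians -0.27 and -0.04) and for 12 and 8 in the media (0.36 and -0.20). Their summed level, which includes EPAS1, was higher in every ligated library of a layer than in every sham one. It was 1159 to 3015 CPM in the sham intima and 4520 to 6885 CPM in the ligated intima, and 1560 to 3756 CPM in the sham media and 4695 to 10168 CPM in the ligated media. This sum was chosen after its values were seen and was not tested. The share of EPAS1 in it is not given here, so it does not show a rise of the regulators as a set. EPAS1 also had positive log2 fold changes of 1.79 and 1.99 in the intima of the BA and the BT, with q-values of 0.738 and 0.393.

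Markers of other cells gave few calls with ligation, but in the intima no gene of any kind passed the edgeR test used here. In the BT intima, 8 of 9 macrophage and leukocyte markers tested were lower with ligation and 1 was higher, with a median log2 fold change of -8.34. All 9 leptomeningeal fibroblast markers were lower there, with a median of -4.02. In the BT media, 6 of 8 macrophage and leukocyte markers were higher and 2 lower, with a median of 0.67. Of 10 macrophage and leukocyte markers with a count, none passed with ligation, and C1QB was at 0 in the 4 ligated intimal libraries. Between layers CD14 passed as higher in the intima. The other 8 of the 9 tested had negative log2 ratios of intima to media, and the median of the list was -1.68. Of 9 brain markers with a count, 2 to 6 were tested in a comparison, and none passed in any described here. Their sum was at most 19.3 CPM. AQP4 and MOG, which are also on the list, were at 0 in every library. Of 3 erythrocyte genes, ALAS2 was higher in the intima than in the media (log2 ratio 4.54, SE 1.302, q = 0.0471). Of the 9 leptomeningeal fibroblast markers, 4 were lower and 2 higher in the intima, and of the 5 pericyte markers 3 were lower.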
